A study of Mus musculus with 4 samples.

Results

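ATP-dependent chromatin remodelling complexes were represented by 46 genes of 4 families: 25 genes of BAF and PBAF (the SWI/SNF complexes), 7 of ISWI, 8 of CHD and 6 of INO80 and EP400. Members were chosen by gene symbol, after the version number was stripped from each Ensembl identifier of the deposited count table and the identifier was matched to the GENCODE M21 annotation. All 46 were found among the 55357 identifiers, and all 46 were among the 17422 genes that passed the filter on low counts. By role, 15 encode Snf2-type ATPases and 12 encode scaffolds, which together make 27 large subunits. The other 19 encode small accessory subunits, among them the AAA+ ATPases Ruvbl1 and Ruvbl2.

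The DDX20 RIP group comprised 2 libraries made from RNA that a DDX20 antibody had brought down, and the Input group comprised 2 libraries of RNA from such cells before precipitation (10% of total RNA). All 4 were made from cells of the testis of C57BL/6 mice at 7 days of age, exposed to ultraviolet light, which links RNA to bound protein. DDX20 (Gemin3) is a DEAD-box helicase of the SMN complex, which assembles small nuclear ribonucleoproteins. The series asks which RNAs come down with DDX20. A control precipitation with another antibody was not used here, so a gene called higher in RIP is not by itself shown to be bound. Such a call means a higher level in RIP after library scaling, which is not always a greater share of the counts. The antibody catalogue numbers given for the 2 RIP libraries differ in 1 character, and nothing says that replicates came from separate mice, so p-values rest on differences between libraries that could be technical.

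The RIP libraries held 38458014 and 37927689 read counts and the Input libraries 21913977 and 21416567. Germ cell and Sertoli cell markers were present in every library, and of 31 marker genes 23 were called lower in RIP, 2 higher, 3 not called and 3 not tested. Over all genes tested, 38.6% were called lower and 38.7% higher. Among genes with coding sequences under 1000 nt, as several of these markers have, 67.8% were called lower. Of all genes of 2000 to under 3000 nt, 11.0% were called lower and 70.8% higher. In that range the markers Ddx4, Pecam1, Cdh5 and Adgre1 were lower (log2 fold changes -0.83, -1.14, -2.32 and -1.65) and Zbtb16 was higher. The 5 Sertoli genes, of which Clu made up most, summed to 1784 and 1789 CPM (counts scaled to library size with trimmed-mean-of-M-values factors, TMM) in RIP and to 2693 and 2661 CPM in Input. Wt1, of the same Sertoli list, was higher, at 269 and 274 CPM in RIP and 164 and 170 CPM in Input (log2 fold change 0.70), as was the germ cell gene Zbtb16 (0.38), and Sox9 was not called (0.12). The 4 spermatid genes, which mark cells not yet formed at this age, summed to 0.148 and 0.443 CPM in RIP and to 1.58 and 1.03 CPM in Input, with Acrv1 at 0 counts in each of the 4 libraries. The summed level of each other testis cell list was also lower in RIP, for example 24.1 and 23.6 CPM for 3 macrophage genes in RIP and 95.6 and 92.5 CPM in Input. Their part in the results was not tested. Ddx20 itself stood at 77.6 and 83.2 CPM in RIP and 41.4 and 41.2 CPM in Input (log2 fold change 0.96), a level of its message that is no check of the precipitated protein.

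Remodelling complexes use ATP to slide, eject or exchange nucleosomes. A Snf2-type motor is held by large scaffold subunits, and smaller subunits with bromodomains, PHD fingers or actin-like folds guide or tune it. In male germ cells such complexes are known to act on spermatogonial gene expression and on the chromatin of meiosis.

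The messages of the large motors and scaffolds were higher in the DDX20 precipitate almost without exception, whereas those of the small subunits went both ways. Of the 27 large members, 26 rose and 1, Smarca1, fell. Of the 19 small members, 9 rose, 8 fell and 2 did not pass the test. Together that is 35 of 46 higher and 9 lower. Over all genes tested, 38.7% were called higher and 38.6% lower, 77.3% in all (edgeR's quasi-likelihood test, adjusted p under 0.05), so the small members lay near the share of all genes and the large members above it. The median log2 fold change, RIP over Input, was 1.66 for the large members, 0.11 for the small members and -0.05 for all genes. Scaling by total counts in place of TMM moved the median of all genes to -0.40. The small members then split into 6 higher and 9 lower and all genes into 4994 higher (28.7%) and 8845 lower (50.8%), in place of 6734 and 6727 (28.8% and 50.5% with upper quartiles), while the large members again had 26 higher and 1 lower.

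The same contrast was visible in the raw share of reads. Large members together took 0.802% and 0.793% of all counts in the RIP libraries and 0.298% and 0.301% in the Input libraries. Small members took 0.112% and 0.113% in RIP and 0.142% and 0.140% in Input. Summed counts of the large members were 7.20 and 7.00 times those of the small members in RIP, and 2.11 and 2.15 times in Input, a ratio in which library scaling cancels. The groups do not overlap, but an exact two-sided permutation test over 2 against 2 libraries gave p = 0.333, the smallest that this design allows.

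**Figure D1:**
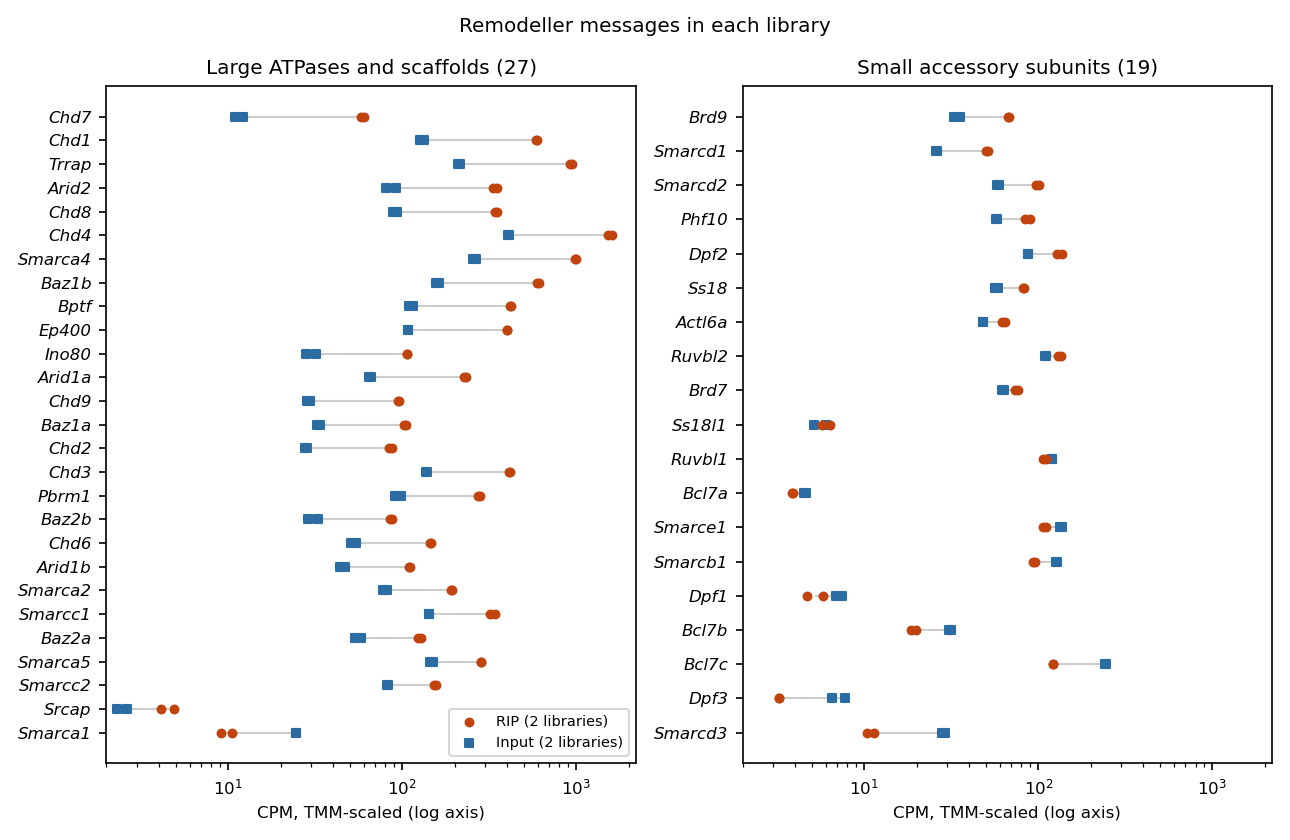
Level of each of the 46 members in each library (CPM with TMM scaling, log axis), for the 27 large members (left panel) and the 19 small members (right panel), ordered by fold change. Circles are the 2 RIP libraries, squares the 2 Input libraries, and grey lines join the group means. RIP lies right of Input for every large gene except Smarca1, while the small genes cross over.

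Coding length moved with these fold changes. The coding sequences of the large members ran from 3138 to 11541 nt (median 5661 nt) and those of the small members from 606 to 1953 nt (median 1254 nt), so the classes do not overlap in length. Of all 2026 tested genes with a coding sequence of at least 3000 nt, 81.2% were higher in RIP and 6.32% lower, with a median log2 fold change of 1.3. Of the 12660 shorter genes, 37.9% were higher and 39.6% lower, with a median of -0.06. The 16 members of 1000 to under 2000 nt had a median of 0.26 beside 0.16 for all 5608 genes of that range, the 11 members of 5000 to under 8000 nt had 1.61 beside 1.56 for 476 genes, and the 7 longest, from 8000 nt upwards, had 1.88 beside 1.70 for 173 genes. The 9 members of 3000 to under 5000 nt had 1.28 beside 1.18 for 1377 genes. In these ranges the members thus had medians slightly above those of all genes. Across the 46 members, Spearman's rho between coding length and log2 fold change was 0.82, and within the classes it was 0.37 for the 27 large and 0.66 for the 19 small members. Over 14686 coding genes it was 0.64. These are descriptions across genes measured in the same 4 libraries.

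**Figure D2:**
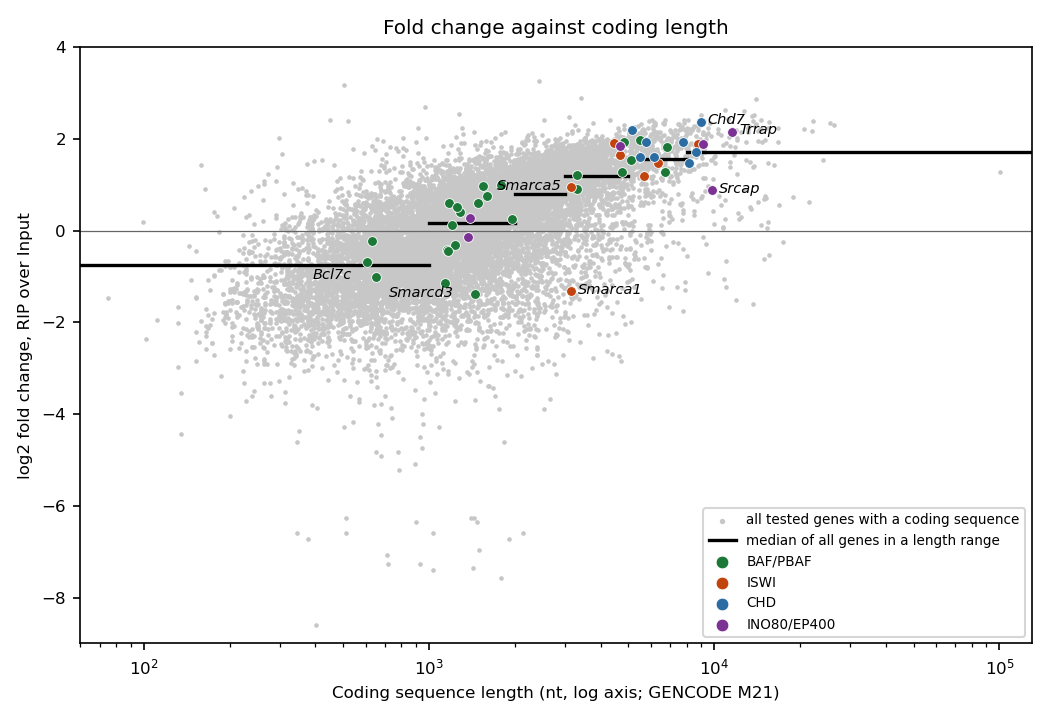
Log2 fold change, RIP over Input, against coding sequence length (nt, log axis). Grey points are all tested genes with a coding sequence, black bars their median in each of the length ranges, and coloured points the 46 members by family. Most members follow the bars upwards, whereas Smarca1 lies far below the median of 1.18 for its range of 3000 to under 5000 nt.

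The motors of BAF and PBAF are Smarca4 (BRG1) and Smarca2 (BRM), alternative ATPases of which a complex holds one. Smarca4 stood at 997 and 985 CPM in the RIP libraries, against 255 and 267 CPM in the Input libraries, and its log2 fold change was 1.93 ± 0.0268 (SE, 2 libraries per group, edgeR adjusted p = 7.6e-35). Smarca2 stood at 194 and 192 CPM in RIP and 77.1 and 82.0 CPM in Input (1.28 ± 0.0395, adjusted p = 4.39e-25). Both were higher in each RIP library than in each Input library. Per kilobase of representative transcript, Smarca4 was the more abundant motor, at 156 CPM per kb in RIP and 41.0 ± 1.29 CPM per kb in Input (SD, n = 2), against 32.5 in RIP and 13.4 ± 0.583 in Input for Smarca2.

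All 8 large BAF and PBAF genes rose, and 7 of them at least 2-fold. Over all genes, 17.1% were called at least 2-fold higher. Genes of like coding length were mostly higher too. Their median log2 fold change was 1.18 for 3000 to under 5000 nt and 1.56 for 5000 to under 8000 nt. Arid1a, the DNA-binding subunit that defines canonical BAF, was at 233 and 226 CPM in RIP and 64.4 and 65.8 CPM in Input (1.82 ± 0.0390). Its alternative Arid1b was at 111 and 109 CPM in RIP and 46.8 and 43.7 CPM in Input (1.28 ± 0.0493). Arid2 and Pbrm1, which define PBAF, had log2 fold changes of 1.98 and 1.54. Smarcc1 and Smarcc2, the paired core scaffolds, rose less, by 1.21 and 0.91, and have the shortest coding sequences of the 8 (3312 and 3297 nt). Arid1b and Smarcc2 were higher here but lower with the coding-length offset described further on (-0.26 and -0.13), and Smarca2 lay near 0 there (-0.03).

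The 17 small BAF and PBAF genes comprised 8 that rose, 7 that fell and 2 that did not pass the test. Over all genes tested, 38.7% were called higher and 38.6% lower, so this split lay near the share of all genes. The 3 Smarcd genes encode alternative versions of the BAF60 subunit, and they did not move together. Smarcd1 stood at 51.7 and 50.1 CPM in RIP and 26.3 and 25.7 CPM in Input (0.97 ± 0.0671), and Smarcd2 at 96.9 and 101 CPM in RIP and 59.8 and 58.2 CPM in Input (0.74 ± 0.0473). Smarcd3, the version known from heart muscle and brain, stood at 10.4 and 11.3 CPM in RIP and 28.0 and 29.0 CPM in Input (-1.39 ± 0.0919, adjusted p = 1.32e-15), the lowest fold change of the 46. In GENCODE M21, 48.2% of the exon bases of Smarcd3, over all its annotated transcripts, overlap Chpf2 on the other strand. The kit does not mark strand, so reads in the overlap cannot be told apart. Of the 150-nt stretches of the representative Smarcd3 transcript, 2.33% recur in Chpf2. Chpf2 itself was higher in RIP (70.6 CPM in RIP, 30.5 CPM in Input).

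The 3 Bcl7 genes, which encode small BAF subunits, have the shortest coding sequences of the 46. Bcl7c stood at 121 and 122 CPM in RIP and 244 and 243 CPM in Input (-1.01 ± 0.0337, adjusted p = 4.6e-24). Per kilobase of representative transcript (1132 nt) it had the highest level of the small members, at 107 CPM per kb in RIP and 215 in Input. Its longest annotated transcript has 6235 nt, so this rank depends on the transcript chosen. Bcl7b was at 19.8 and 18.6 CPM in RIP and 30.7 and 31.3 CPM in Input (-0.69 ± 0.0791). Bcl7a was rare, at 3.84 and 3.9 CPM in RIP and 4.62 and 4.51 CPM in Input, and did not pass the test (-0.24 ± 0.183, adjusted p = 0.237). Bcl7a passed as lower with total counts and upper-quartile scaling (-0.59 and -0.58) and as higher with the coding-length offset (0.46, adjusted p = 0.0255). Under that offset Bcl7b lost its call (0.04, adjusted p = 0.626).

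Among the PHD finger subunits, Dpf2, the broadly expressed version, rose to 136 and 128 CPM in RIP, against 87.2 and 87.7 CPM in Input (0.59 ± 0.0418). Its relatives known from neurons and muscle were scarce, with 1.03 CPM per kb in RIP and 2.27 in Input for Dpf3 beside 39.8 in RIP and 26.4 in Input for Dpf2. Dpf3 stood at 3.22 and 3.25 CPM in RIP and 7.74 and 6.5 CPM in Input (-1.14 ± 0.174), and Dpf1 at 4.67 and 5.82 CPM in RIP and 6.89 and 7.45 CPM in Input (-0.45 ± 0.160). Low levels of this kind can mean few expressing cells or little RNA per cell, which bulk libraries cannot tell apart. Dpf1 lost its call without RIP replicate 1 (-0.26), Input replicate 1 (-0.49) or Input replicate 2 (-0.39), and with DESeq2 (-0.43). Phf10, the PHD finger subunit of PBAF, rose by 0.59.

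The core subunits Smarcb1 (SNF5) and Smarce1, found in most BAF forms, both fell: Smarcb1 to 93.1 and 95.8 CPM in RIP, against 126 and 128 CPM in Input (-0.43 ± 0.0400), and Smarce1 to 110 and 106 CPM in RIP, against 136 and 133 CPM in Input (-0.32 ± 0.0390). The bromodomain subunits Brd9, of noncanonical BAF, and Brd7, of PBAF, had log2 fold changes of 0.98 and 0.25; under either other scaling Brd7 turned to -0.10 and did not pass, and with the coding-length offset it was lower (-0.27). The actin-like subunit gene Actl6a (BAF53A) rose by 0.40, which did not pass under those scalings (0.05 and 0.06); 11.6% of its exon bases overlap Mrpl47, which was lower in RIP (-1.70). Ss18, a subunit of BAF and noncanonical BAF, rose by 0.50, and its rare relative Ss18l1, at 5.73 and 6.33 CPM in RIP and 6.00 and 5.13 CPM in Input, did not pass the test (0.12 ± 0.162, adjusted p = 0.524; -0.23 with total counts). It was the 1 member of 46 whose RIP and Input libraries overlapped. Over all genes tested, 88.0% had no such overlap.

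The ISWI family showed the single reversal among the large genes. Its motors are Smarca5 (SNF2H) and Smarca1 (SNF2L), close relatives that slide nucleosomes into even spacing, and their coding sequences are close in length (3153 and 3138 nt). Smarca1 stood at 9.10 and 10.5 CPM in the RIP libraries and 24.6 and 24.4 CPM in the Input libraries, a log2 fold change of -1.32 ± 0.0998 (adjusted p = 4.64e-14). Smarca5 stood at 284 and 282 CPM in RIP and 150 and 145 CPM in Input (0.94 ± 0.0327, adjusted p = 1.28e-23; -0.05 with the coding-length offset). The groups did not overlap for either gene, and they lay in opposite order. Within a library, Smarca1 had 0.0320 and 0.0372 counts for each Smarca5 count in RIP and 0.164 and 0.169 in Input, so the RIP ratio was 0.208 of the Input ratio whatever the scaling. Leaving out any 1 library kept the Smarca1 log2 fold change between -1.39 and -1.19. Of the 377 tested genes with coding sequences of 3000 to under 3300 nt, 7.43% were called lower, 5.31% at least 2-fold lower, and their median log2 fold change was 1.09.

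To show whether reads of such relatives could be confused, the longest identical stretch of each pair's coding sequences was located in the GENCODE M21 transcripts (GRCm38). The shared run is in capitals, flanked on each side by bases of the same coding sequence in lower case, written 5′ to 3′ on the coding strand. Smarca1 lies on chromosome X from 47809368 to 47892974 and Smarca5 on chromosome 8 from 80698507 to 80739497, both on the minus strand, and the printed stretch (chrX:47875275-47876426 and chr8:80726101-80726252, introns included) spans exons 7 and 8 in both genes. Chd4 and Chd3, motors of the NuRD complex, share the longest run of the 18 pairs compared, 35 nt. The printed stretch spans exons 23 and 24 of Chd4 (chr6:125113539-125113925, plus strand) and exons 22 and 23 of Chd3 (chr11:69353870-69354112, minus strand).
Smarca1: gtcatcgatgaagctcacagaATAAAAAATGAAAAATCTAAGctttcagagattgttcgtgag
Smarca5: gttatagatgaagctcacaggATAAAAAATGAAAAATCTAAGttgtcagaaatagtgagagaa
Chd4: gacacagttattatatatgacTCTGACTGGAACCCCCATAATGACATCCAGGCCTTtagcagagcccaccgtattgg
Chd3: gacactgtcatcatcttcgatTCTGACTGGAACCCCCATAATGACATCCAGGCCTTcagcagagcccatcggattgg
The run is 21 nt long in the Smarca pair, so no 150-nt read could lie wholly in a stretch shared by the motors. Of the 46 representative transcripts, 29 had no window of 150 nt that recurs in a transcript of another gene, Smarca1 among them. In Smarca5 10.8% of windows recur in other genes, Gm13135 and the pseudogene Smarca5-ps among them. Shares over 10% were also found for Srcap (88.4%), Ruvbl1 (20.8%), Actl6a (16.3%), Smarce1 (15.8%) and Bcl7c (15.7%).

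All 5 large regulatory partners of the ISWI motors were higher. Among all tested genes with a coding sequence of at least 3000 nt, 81.2% were higher. Baz1b (WSTF), the WICH subunit, stood at 613 and 598 CPM in RIP and 157 and 163 CPM in Input (1.92 ± 0.0295). Bptf, the NURF subunit that reads methylated histone H3 and partners SNF2L in human cells, stood at 422 and 416 CPM in RIP and 115 and 110 CPM in Input (1.90 ± 0.0323). Thus a scaffold known to work with the Smarca1 protein was higher in RIP while the Smarca1 message was lower. Baz1a (ACF1), Baz2b and Baz2a (TIP5, of the nucleolar NoRC complex) had log2 fold changes of 1.66, 1.48 and 1.19; Baz2b and Baz2a had -0.02 and -0.23 with the coding-length offset.

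All 8 CHD genes rose at least 2-fold, with log2 fold changes from 1.47 for Chd6 (-0.19 with the coding-length offset) to 2.36 for Chd7. Calls of at least 2-fold higher made up 17.1% of all genes. The median log2 fold change was 1.56 for all genes of 5000 to under 8000 nt and 1.70 for those from 8000 nt upwards. Chd7, a motor found at enhancers and mutated in human CHARGE syndrome, rose most of the 46, to 58.2 and 60.6 CPM in RIP, against 12.1 and 11.0 CPM in Input (2.36 ± 0.0774, adjusted p = 2.34e-24). Chd1, which binds methylated H3 at active genes, stood at 597 and 588 CPM in RIP and 126 and 134 CPM in Input (2.19 ± 0.0315). Chd4, the motor of NuRD, had the most reads of the 46, at 1603 and 1518 CPM in RIP and 404 and 413 CPM in Input (1.93 ± 0.0263). For each of these motors the RIP libraries lay far above the Input libraries relative to the spread within either group.

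Per kilobase, Chd4 led the family in both groups, at 233 CPM per kb in RIP and 61.0 ± 0.971 CPM per kb in Input (SD, n = 2), and Chd7 stood last, at 5.81 in RIP and 1.13 ± 0.0738 in Input. The order in Input was Chd4, Chd3 (19), Chd1 (16.4), Chd8 (10.6), Chd6 (5), Chd2 (3.09), Chd9 (2.42) and Chd7. In RIP it was Chd4, Chd1 (74.9), Chd3 (57.2), Chd8 (40.7), Chd6 (13.8), Chd2 (9.41), Chd9 (7.94) and Chd7, so Chd1 and Chd3 changed places. Chd8, which binds beta-catenin, and Chd3 rose by 1.93 and 1.59 (log2). Chd2 and Chd9 rose by 1.61 and 1.72, and with the coding-length offset Chd9 lost its call (0.03, adjusted p = 0.655). In the annotation 18.4% of Chd2 exon bases, over all its transcripts, are shared with 1810026B05Rik, which was lower in RIP (-1.79). Of the 150-nt windows of the representative Chd2 transcript, 3.94% recur in that gene.

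Among INO80 and EP400 genes, the 4 large ones rose and the 2 small ones split. The shares called higher were 81.2% of all genes with coding sequences of at least 3000 nt and 37.9% of shorter ones. Trrap, a kinase-like scaffold without kinase activity that recruits the TIP60 acetyltransferase complex, has the longest coding sequence of the 46. It stood at 944 and 924 CPM in RIP and 214 and 209 CPM in Input (2.14 ± 0.0270, adjusted p = 4.82e-36). The motor Ep400 was at 399 CPM in each RIP library and 108 CPM in each Input library (1.88 ± 0.0320), and Ino80, the motor of its own complex, at 107 and 106 CPM in RIP and 27.9 and 32.0 CPM in Input (1.83 ± 0.0568). Srcap, the motor that deposits H2A.Z, was scarce at 4.11 and 4.91 CPM in RIP and 2.31 and 2.61 CPM in Input (0.87 ± 0.208, adjusted p = 0.000342; -0.88 with the coding-length offset). In the annotation 88.4% of the 150-nt windows of its transcript recur in another gene, chiefly the overlapping model Gm42715, itself at 1.08 CPM in RIP and 0.597 CPM in Input. How shared reads were assigned is not given in the sources used here, so the Srcap level is uncertain.

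Ruvbl1 and Ruvbl2 form a ring that sits in the INO80, SRCAP and TIP60 complexes. Ruvbl2 stood at 135 and 130 CPM in RIP and 111 and 109 CPM in Input (0.27 ± 0.0392), and Ruvbl1 at 107 and 110 CPM in RIP and 119 and 120 CPM in Input (-0.14 ± 0.0394, adjusted p = 0.0016). The messages of these ring partners thus lay on opposite sides of no change, by small amounts. Ruvbl1 lost its call without RIP replicate 1 and with no filter on low counts (-0.09 each) and was higher with a transcript-length offset (0.43). Ruvbl2 turned to -0.08 by total counts and to -0.07 by upper quartiles and passed under neither. In Ruvbl1 20.8% of windows recur in another gene, Gm5837, and 10.7% of Ruvbl2 exon bases overlap Gys1. Without the 5 members that share over 10% of their exon bases with another gene (Srcap, Smarcd3, Chd2, Actl6a and Ruvbl2), 24 large members were higher and 1 lower, and 7 small members were higher and 7 lower.

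Ratios of relatives within each library, in which scaling cancels, did not overlap between RIP and Input in any of the 18 pairs, though an exact permutation test of 2 against 2 libraries cannot go below p = 0.333. Of all single genes tested, 88.0% had no overlap between RIP and Input, and the share for other gene pairs was not computed. Some genes recur among the 18 pairs, so these are not separate observations. Smarcd2 had 9.29 and 8.91 counts for each Smarcd3 count in RIP and 2.13 and 2.01 in Input. Dpf2 had 42.2 and 39.3 counts for each Dpf3 count in RIP and 11.3 and 13.5 in Input. Smaller shifts were seen for Smarca4 over Smarca2 (5.15 and 5.14 in RIP, 3.31 and 3.25 in Input), for Arid1a over Arid1b (2.10 and 2.08 in RIP, 1.38 and 1.51 in Input) and for Chd4 over Chd3 (3.82 and 3.70 in RIP, 2.95 and 2.98 in Input). Chd8 over Chd7 was lower in RIP, at 6.04 and 5.62, than in Input, at 7.30 and 8.44, and so was Ruvbl1 over Ruvbl2, at 0.795 and 0.845 in RIP and 1.07 and 1.10 in Input. Over the 18 pairs there was no common direction: the relative with more counts in Input had gained on the other in RIP in 10 pairs and had lost in 8.

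**Figure D3:**
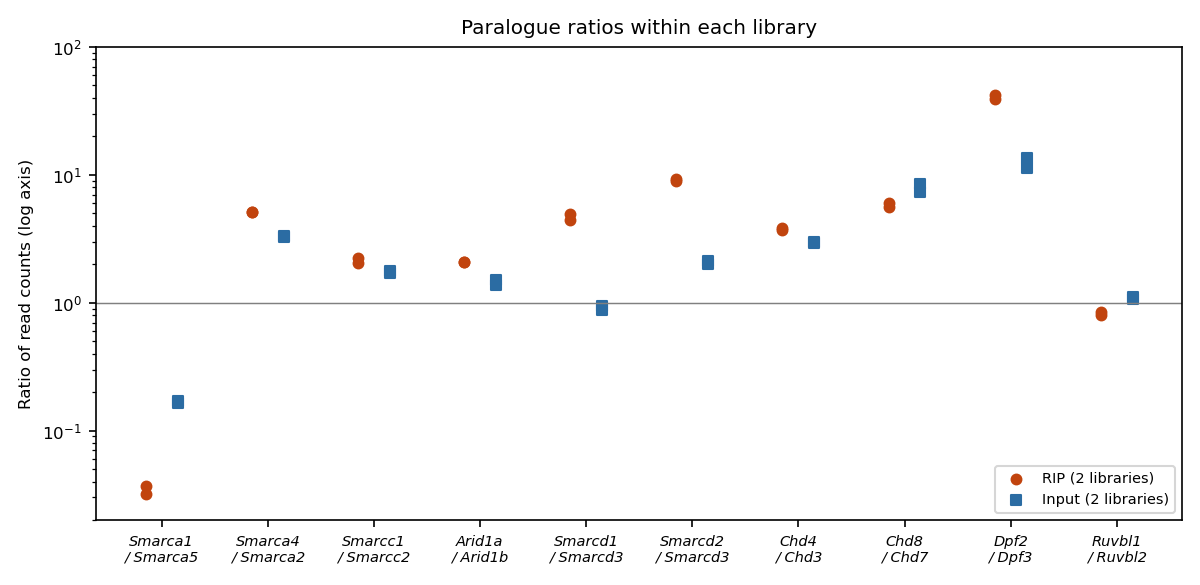
Ratio of read counts between related genes within each library (log axis); circles are the 2 RIP libraries and squares the 2 Input libraries. The grey line marks equal counts. Smarca1 over Smarca5 lies at 0.0320 and 0.0372 in RIP, against 0.164 and 0.169 in Input, and Smarcd1 over Smarcd3 reaches 4.95 and 4.42 in RIP, against 0.939 and 0.884 in Input.

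A fit with an offset for coding length, which takes out the smooth trend over all coding genes, brought the classes close together. Under it 17 of the 27 large members were higher, 6 lower and 4 not called, and 9 of the 19 small members were higher and 8 lower. Over all genes in that fit 38.7% were higher and 34.6% lower. The class medians were 0.19 for large and 0.12 for small members, a difference of 0.07 in place of 1.54, beside 0.01 for all genes. With an offset for transcript length instead (the longest annotated transcript of each gene), 24 large members were higher, 1 lower and 2 not called. Of all genes in that fit, 36.6% were higher and 32.6% lower. Under the coding-length offset the highest members were Chd1 (0.83), Smarcd1 (0.72), Baz1b (0.66), Chd7 (0.65) and Dpf2 (0.64). The lowest under it were Smarca1 (-2.32 ± 0.102), Smarcd3 (-1.58), Dpf3 (-1.04) and Srcap (-0.88), the last of which had been higher without the offset. Bcl7a, not called before, was higher (0.46). Smarcc2, Arid1b, Baz2a, Chd6 and Brd7 also turned to lower calls, and Smarca5, Smarca2, Baz2b and Chd9 lay near 0 and were not called.

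**Figure D4:**
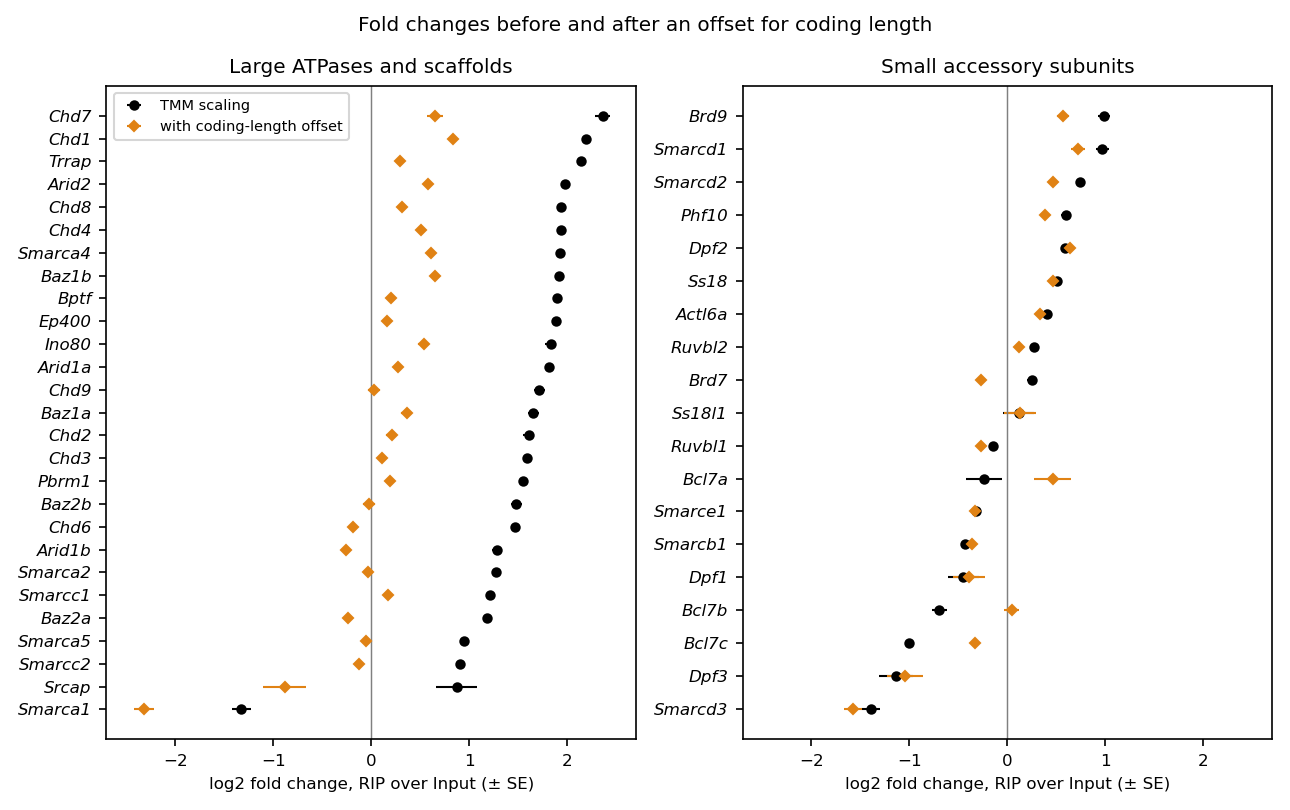
Log2 fold change, RIP over Input, with its SE for each member, for TMM scaling (circles) and for the fit with a coding-length offset (diamonds). The large members move left towards 0 under the offset, to a median of 0.19, and most small members move less, while Smarca1 lies at -2.32 with the offset and at -1.32 without it.

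Other subunits of the same complexes and other Snf2 ATPases were also counted, from a list of 64 symbols of which 62 were in the table, the other 2 being older names for listed genes. The list was drawn up with earlier results of these data known. Of these 62, 35 rose, 20 fell and 7 did not pass, with a median log2 fold change of 0.49, beside 38.7% higher and 38.6% lower over all genes. With total counts the split was 30 higher and 26 lower (28.7% and 50.8% of all genes), and with the coding-length offset 21 higher and 29 lower (38.7% and 34.6% of all genes). All 13 other Snf2-family ATPases rose, among them Btaf1, which removes TBP from DNA (1.88), and Hells, a motor needed for DNA methylation (0.17, but -0.18 with total counts and -0.59 with the coding-length offset). Their coding sequences ran from 2241 to 7428 nt, and 70.8% to 84.0% of all genes in the length ranges from 2000 to under 8000 nt were called higher. With total counts 11 of the 13 were higher and 1 lower, and with the coding-length offset 6 were higher and 4 lower. Of 13 NuRD subunits 8 rose and 5 fell: the histone chaperone Rbbp7 and the scaffold Mta2 had 0.90 and 0.69, whereas Rbbp4 and the methyl-CpG-binding family member Mbd3 had -0.49 and -0.18. Mbd3 turned to a higher call with the coding-length offset (0.24) and with the transcript-length offset (0.40). The 25 further subunits of INO80, SRCAP and TIP60 comprised 9 that rose, 11 that fell, led in abundance by Morf4l1 (-0.75), and 5 not called. The NuRD and INO80, SRCAP and TIP60 counts thus stood beside 38.7% higher and 38.6% lower over all genes, and nothing particular to these subunits is read from them. Actin, Actb, which is also a BAF subunit, had -0.27, and 0.14 with the transcript-length offset.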

How the data were processed

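RNA was sequenced from 2 DDX20 RIP and 2 Input libraries. The authors deposited raw read counts per gene, 1 column per library. The submitters' processing notes list STAR 2.7.2b, featureCounts, SAMtools, cutadapt 4.1 and Trimmomatic 0.36 and the build GRCm38, with no settings; the annotation release was not given in the sources used here. Most nonzero counts are even, a pattern that counting each mate separately would give, and this would overstate depth. Groups came from the sample titles.

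Symbols, coordinates and lengths came from GENCODE M21, which names 52081 of 55357 identifiers. Genes kept by filterByExpr were scaled by TMM and tested with edgeR 4.0.16 (quasi-likelihood, R 4.3.3) and Benjamini-Hochberg adjustment over all 17422 genes. SE is that of the log2 fold change. Alternatives were other scalings and filters, DESeq2 1.42.0, limma-voom (limma 3.58.1), a replicate block, leaving out each library, halved counts, a test against 1.5-fold, and loess offsets (span 0.3) for coding or transcript length. The transcript-length offset used the longest annotated transcript of each gene, whereas levels per kilobase used the representative transcript. Coding length classes (at least 3000 nt) and leaving out overlapping genes were added after seeing the data. A planned split by protein length was not run. The steps were tested on simulated data with 50 genes changed at each fold, of which 88% were recovered at 1.5-fold and 100% at 8-fold. There few genes changed and no length trend was built in, so the simulation cannot test the choice of scaling. All 46 members were named, and the 4 other called subunits with the highest mean CPM per direction. Members and lists were chosen with earlier results of these data known. Replicates were kept apart. On halved counts, which assume that both mates of each read pair were counted, they differed slightly more than sampling noise (1.15 and 1.19 times for the RIP and Input pairs). The excess was not computed on the counts as deposited.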

Additional observations from a re-analysis of the deposited data

How the results depend on the processing

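All 46 member calls were the same with RLE scaling, limma-voom, halved counts and the replicate block, and the block gave 6734 higher and 6655 lower genes. The same-numbered libraries did not deviate together (correlation -0.0010). Replicates differed little beyond sampling noise, so this correlation cannot tell whether the numbers pair the libraries. Leaving out 1 library gave 6231 to 6569 higher and 5071 to 5815 lower genes, 35 higher and 7 to 9 lower members, and a difference of class medians of 1.39 to 1.68 (log2). Ss18l1, Brd7 and Ruvbl2 turned to -0.23, -0.10 and -0.074 with upper quartiles and to -0.23, -0.10 and -0.080 with total counts; Ss18l1 stood at -0.0064 with a mean CPM of at least 1. With the coding-length offset 17 large members were higher and 6 lower, 14 members were lower, 21 partners were higher and the class medians differed by 0.067. There Smarca2 (-0.031), Smarcc2 (-0.13), Arid1b (-0.26), Brd7 (-0.27), Smarca5 (-0.055), Baz2a (-0.23), Baz2b (-0.019), Chd6 (-0.19) and Srcap (-0.88) turned negative, and Bcl7a (0.46) and Bcl7b (0.044) positive. With the transcript-length offset the class medians differed by 0.68, and Ss18l1 (-0.31), Srcap (-0.26) and Ruvbl1 (0.43) changed sign. The cause was not tested. The test against 1.5-fold, which asks for more, called 4210 genes higher and 4426 lower, 3 small members higher and 3 lower, 4 members lower in all and 10 partners lower. Low counts limit Srcap, Bcl7a, Dpf1, Dpf3 and Ss18l1, whose SE ran from 0.16 to 0.208.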
